A study of Mus musculus with 2 samples.

Results

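Motile cilium genes are the genes whose products build and drive the beating cilium. A list of 40 such genes was followed here: the transcription factors that turn the programme on, dynein arms and their assembly factors, radial spokes, the central pair, tektins and other proteins of the microtubule doublets, and further genes of ciliated cells. Members were found as probe sets of an Affymetrix whole-genome mouse array whose annotation names a single gene with a listed symbol. Of the 40 members, 39 had such a probe set and Lrriq1, a leucine-rich repeat gene, had none. The 39 genes were covered by 58 probe sets, out of 18193 genes and 34945 single-gene probe sets in all.

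The samples were entire ovaries of CD-1 mice with a wild type genotype, aged 24 to 28 days, which had received 5 IU of pregnant mare serum gonadotropin to grow follicles and, 48 h later, 5 IU of human chorionic gonadotropin (hCG) to start ovulation. At 2 h after hCG the mice were given ulipristal acetate (also called CDB in the labels), a synthetic ligand of the progesterone receptor, or the oil vehicle. Tissue was taken at 11 h, and the labels do not say from which injection that is counted, how much drug was given or how many mice each sample holds. There was 1 array per treatment, so no value below has a replicate error and no test between the treatments could be made. Every ratio is ulipristal over vehicle and compares these 2 samples. Signals are the deposited MAS5 values, in arbitrary units on a linear scale.

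A motile cilium has a ring of microtubule doublets around a central pair. Dynein arms walk along the neighbouring doublet, radial spokes and the central pair regulate them, and the same parts build the sperm tail. In the female tract, cells with many motile cilia line the oviduct, and remnants of the rete ovarii beside the ovary also hold ciliated cells. The primary cilium that many other cells carry as a single sensory organelle lacks most of these parts. Foxj1 is the transcription factor that drives the motile programme, and RFX factors act with it through a promoter element called the X-box.

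The motile cilium genes were, as a group, higher in the ulipristal sample. The deposited signal of the brightest probe set was higher with ulipristal for 36 of 39 members, where 58.6% of all genes were, and lower for 3 (Mlf1, Efhc2 and Stk33). The median signal over these 39 probe sets was 38.0 with ulipristal and 18.4 with vehicle. Many members were dim, and signals at or below 7.17, the floor set at the 25th percentile of all non-control values, were treated as having no order. At 2-fold or more, 21 of the 39 were higher and 0 were lower. Of the others, 13 differed by less than 2-fold, 2 (Spag16 and Ak8) had only a lower bound just under 2-fold, and 3 (Spag6, Spag17 and Stk33) were below the floor on both arrays. Among all genes with a probe set, 5.63% were higher by this measure and 2.53% lower. The median log2 ratio was 1.05 over the 39 members and 0.02 over all genes.

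A stricter count used only genes whose geometric mean signal over both arrays reached 30.8, the median over non-control probe sets. Such genes are called measured below. This left 18 of the 39 members, and 21 were too dim. Of the 18 members, 12 were higher by 2-fold or more and 0 lower, where 3.34% of the 11364 measured genes were higher and 1.56% lower. The median log2 ratio was 1.19 for the 18 members and 0.09 for all measured genes. A gene with a low vehicle signal can pass this filter through a high ulipristal signal, so the counts over measured members are a description. When the filter was set on the vehicle signal alone, 10 members passed and 5 of them were at least 2-fold higher, as were 2.17% of the 11231 genes that passed it. These were Dynlrb2, Cfap43, Ak7, Tmem212 and Tppp3.

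Dim genes reached 2-fold more often than bright ones in the whole table, and the members are dim. Among measured genes below a signal of 154, the 75th percentile, 7.48% were at least 2-fold higher, and 12 of the 17 members in that range were. Above that signal 0.822% were, and the only member there, Mlf1, was not. Among the genes too dim to count as measured, 9.45% were at least 2-fold higher, and 9 of 21 members were. Adding 50 to every signal, which shrinks ratios of dim genes, left 1 of 17 members at 2-fold, Dynlrb2, and 0.475% of all genes.

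**Figure D1:**
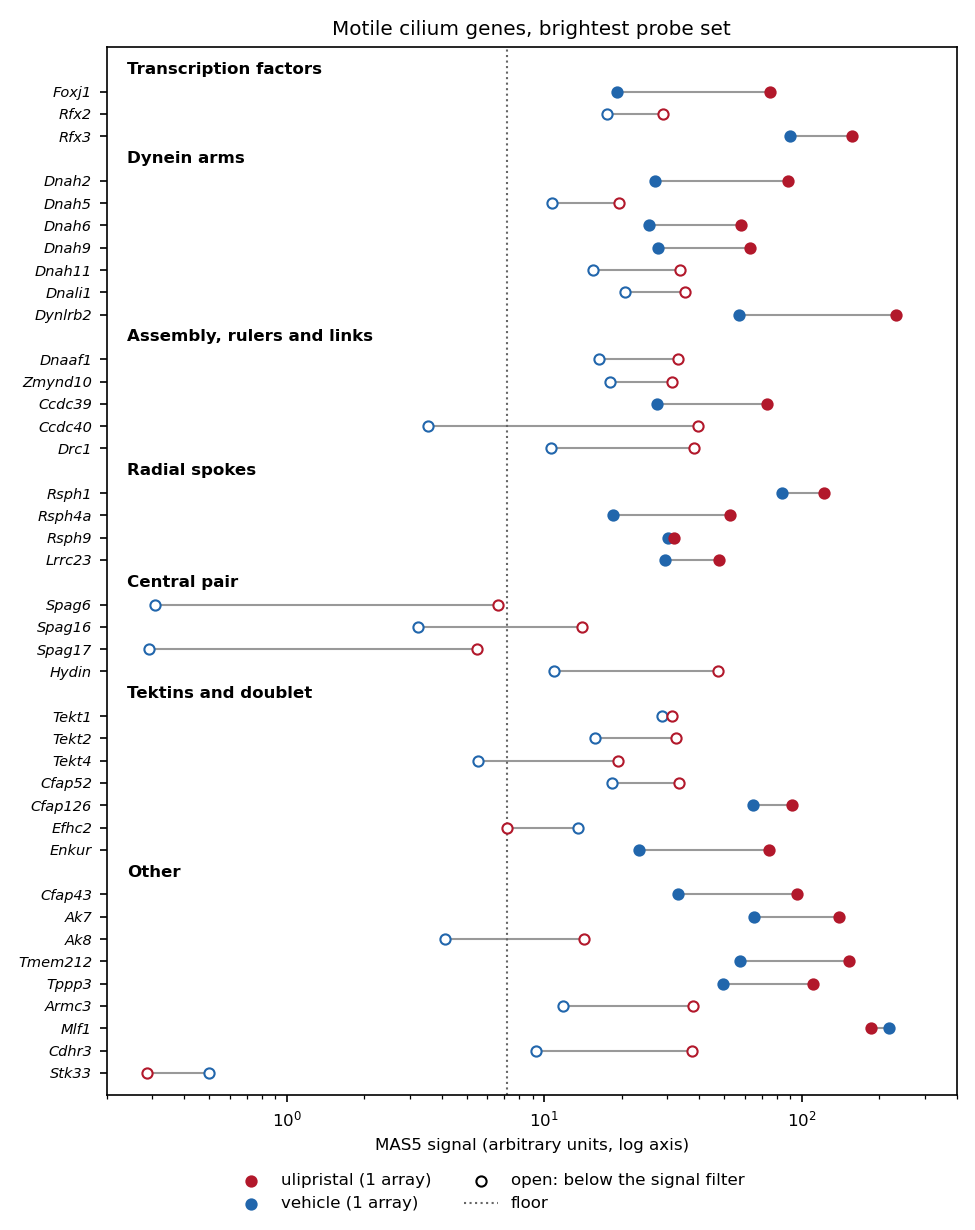
MAS5 signal (arbitrary units, log axis) of the brightest probe set of each of 39 motile cilium genes on the ulipristal array (red) and the vehicle array (blue), by structure; open points mark genes below the signal filter and the dotted line the floor of 7.17. The red point lies to the right of the blue one for 36 genes, and the exceptions are Mlf1, Efhc2 and Stk33.

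**Figure D2:**
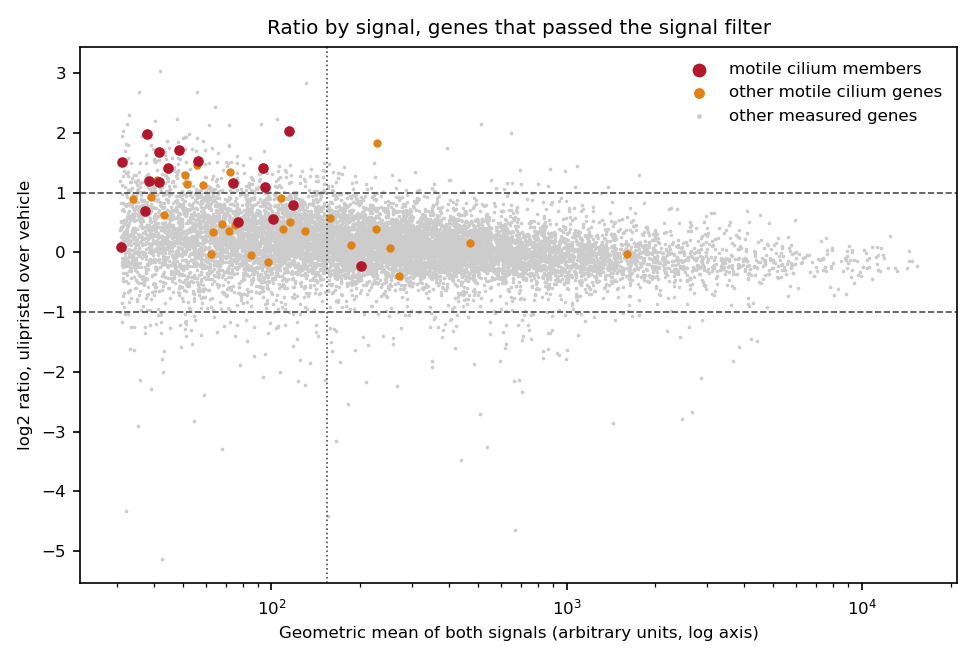
Log2 ratio of ulipristal over vehicle against the geometric mean of both signals (arbitrary units, log axis) for 11364 measured genes, with 18 motile cilium members in red and 28 other motile cilium genes in orange; dashed lines mark 2-fold and the dotted line the 75th percentile of signal, 154. The members lie at the low end of the signal range, 12 of them at or above the upper dashed line and none below the lower one.

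Promoter windows, 250 bases before to 50 bases after the transcript start, were read for the members because the X-box is the element through which RFX factors act. RefSeq (GRCm38.p6) gave a window for 34 of the 40 members. A strict form of the X-box was searched on both strands as GTTNCC, then 1 to 3 bases, then GGNAAC. This form was in 0 of these 34 genes, in 6 of 40 primary cilium genes (15%) and in 0.903% of all 27025 genes. The 0 holds for this pattern and not for every form of the X-box. Its single arm, GTTGCC on either strand, was in 16 of 34 members (47.1%), in 19 of 40 primary cilium genes (47.5%) and in 14.1% of all genes. A relaxed form with the second arm shortened to GNAAC was added after the sequences had been seen. It was in 7 of 34 members (20.6%), in 14 of 77 other motile cilium genes (18.2%), in 7 of 40 primary cilium genes (17.5%) and in 1.95% of all genes. The strict form, the relaxed form and the arm can overlap. The forkhead core GTAAACA, the letters FOXJ1 and many other forkhead factors bind, was in 3 of 34 members (8.82%) and in 4.05% of all genes. The stretches below show the relaxed X-box in Dynlrb2, Enkur, Hydin, Dnah9 and Tekt4, all at least 2-fold higher with ulipristal, and the forkhead core in Cfap43, Ak7 and Mlf1, of which Mlf1 was not higher. They run 5′ to 3′ on the gene's strand, and capitals mark every motif found.
Dynlrb2 (chr8:116504934-116505006, plus strand): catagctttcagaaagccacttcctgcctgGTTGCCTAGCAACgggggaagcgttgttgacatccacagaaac
Enkur (chr2:21205334-21205429, minus strand): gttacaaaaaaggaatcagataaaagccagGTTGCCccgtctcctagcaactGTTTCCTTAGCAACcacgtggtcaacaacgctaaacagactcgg
Hydin (chr8:110266926-110266999, plus strand): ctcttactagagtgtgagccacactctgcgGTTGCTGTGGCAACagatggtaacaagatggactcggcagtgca
Dnah9 (chr11:66168591-66168663, minus strand): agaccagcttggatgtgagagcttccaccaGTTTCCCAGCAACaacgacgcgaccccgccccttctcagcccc
Tekt4 (chr17:25471560-25471633, plus strand): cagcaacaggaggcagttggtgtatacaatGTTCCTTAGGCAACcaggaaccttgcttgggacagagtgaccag
Cfap43 (chr19:47837380-47837446, minus strand): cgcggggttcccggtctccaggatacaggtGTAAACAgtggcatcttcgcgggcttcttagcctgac
Ak7 (chr12:105705821-105705887, plus strand): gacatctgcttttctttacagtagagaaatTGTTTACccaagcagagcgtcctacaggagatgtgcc
Mlf1 (chr3:67373951-67374027, plus strand): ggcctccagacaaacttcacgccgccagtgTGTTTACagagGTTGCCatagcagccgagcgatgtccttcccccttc

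The members' ratios were set beside the motif. Of the 15 members with a probe set and an X-box arm in a window, 7 were at least 2-fold higher (median log2 ratio 0.97), and of the 18 without the arm 10 were (median 1.11). Of the 7 with the relaxed X-box, 6 were at least 2-fold higher and the seventh, Spag16, had a lower bound of 1.96-fold. Of the 26 without it, 11 were at least 2-fold higher. Among all genes with a probe set 5.63% were. Only Dynlrb2, Enkur and Dnah9 of the 7 were measured. The relaxed form was set after the members' sequences had been seen, so this split is a description and no conclusion is drawn from it. A match is a run of letters and not evidence of binding.

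Among the transcription factors, Foxj1 had a signal of 75.1 with ulipristal and 19.1 with vehicle, a log2 ratio of 1.98 or 3.93-fold. Rfx3, which also serves primary cilia, had 156 with ulipristal and 89.7 with vehicle, 1.74-fold. Its dim second probe set had 14.2 with ulipristal and 12.4 with vehicle. Rfx2, which also acts in sperm formation, was too dim on all 4 of its probe sets. Its brightest had 28.9 with ulipristal and 17.5 with vehicle, and the next had 15.7 with ulipristal and 19.7 with vehicle, so these probe sets differ in direction. Foxj1 was thus the only factor of these 3 at 2-fold.

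All 7 dynein genes had a positive ratio, and 5 of them were at least 2-fold higher, where 5.63% of all genes with a probe set were. All 4 that were measured were at least 2-fold higher, but only Dynlrb2 of these passed the filter set on the vehicle signal alone. Dynlrb2, a light chain of the roadblock family, had 233 with ulipristal and 56.9 with vehicle. Its log2 ratio of 2.03, or 4.09-fold, was the highest of the 18 measured members, and it was the only member at 2-fold under every one of the 10 alternative settings that gave it a value. Dnah2, a heavy chain of the inner arms, had 88.3 with ulipristal and 26.9 with vehicle, 3.28-fold. Its other probe set was dim, at 9.27 with ulipristal and 10.2 with vehicle. The inner arm heavy chain Dnah6 had 58.1 with ulipristal and 25.4 with vehicle, 2.29-fold. Dnah9, a heavy chain of the outer arms, had 62.6 with ulipristal and 27.6 with vehicle, 2.27-fold. The remaining 3 were below the filter. Dnah11, another outer arm heavy chain, had 33.6 with ulipristal and 15.4 with vehicle, 2.18-fold. Dnah5, an outer arm heavy chain whose loss in people is a common cause of primary ciliary dyskinesia, had 19.4 with ulipristal and 10.7 with vehicle, 1.81-fold. Dnali1, an inner arm light intermediate chain, had 35.2 with ulipristal and 20.6 with vehicle on its brightest probe set and 42.3 with ulipristal and 8.30 with vehicle on the other, so that 1.71-fold and 5.10-fold stand for the same gene.

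Factors that assemble the arms and set their spacing were mostly dim, and only Ccdc39 was measured. Of the 5, 4 were at least 2-fold higher, where 5.63% of all genes with a probe set were. Ccdc39, which forms with Ccdc40 the ruler that spaces arms and spokes along the doublet, had 72.9 with ulipristal and 27.4 with vehicle, 2.66-fold. That probe set is of a type that can bind several transcripts, and the other 2 of Ccdc39 were at 9.72 or less on both arrays. Ccdc40 had 39.5 with ulipristal and 3.53, below the floor, with vehicle, at least 5.51-fold. Drc1, a subunit of the nexin link between doublets, had 38.0 with ulipristal and 10.6 with vehicle, 3.58-fold. Dnaaf1, which preassembles dynein arms in the cytoplasm, had 33.2 with ulipristal and 16.3 with vehicle on its brightest probe set, 2.03-fold, but 8.72 with ulipristal and 15.3 with vehicle on the other. Zmynd10, a second preassembly factor, had 31.4 with ulipristal and 18.0 with vehicle, 1.74-fold.

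The radial spoke genes were all measured, and 1 of 4 was at least 2-fold higher, where 3.34% of all measured genes were. Rsph4a, a protein of the spoke head, had 52.5 with ulipristal and 18.4 with vehicle, 2.85-fold. Rsph1 and Rsph9 belong to the same spoke head. Rsph1 had 122 with ulipristal and 83.4 with vehicle, 1.47-fold. Rsph9 had 31.9 with ulipristal and 30.1 with vehicle, 1.06-fold, and its sign changed under some settings (log2 ratios from -0.05 to 0.09). Lrrc23, another spoke protein, had 47.7 with ulipristal and 29.4 with vehicle, 1.62-fold.

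No central pair gene was measured. Hydin, a large protein of a central pair projection, had 47.3 with ulipristal and 10.9 with vehicle, 4.35-fold, on 1 probe set, and the other was below the floor on both arrays. Spag16 had 14.1 with ulipristal and 3.23 with vehicle, at least 1.96-fold, and its other 3 probe sets were below the floor on both arrays. Spag6 and Spag17 were below the floor on both arrays in every probe set, so no fold is given for them.

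Among the tektins and other doublet proteins, 3 of 7 were at least 2-fold higher, where 5.63% of all genes with a probe set were. Enkur, a protein inside the doublet, had 74.5 with ulipristal and 23.2 with vehicle, 3.20-fold, and Cfap126, also known as Flattop, had 91.9 with ulipristal and 64.5 with vehicle, 1.43-fold. These 2 were measured. Tektins are filament proteins inside the doublet. Tekt2 had 32.6 with ulipristal and 15.7 with vehicle, 2.07-fold. Tekt4 had 19.3 with ulipristal and 5.51 with vehicle, at least 2.69-fold. Tekt1 had 31.3 with ulipristal and 28.6 with vehicle, 1.09-fold, so the 3 tektins ran from near 1 to more than 2-fold. Cfap52, another doublet protein, had 33.4 with ulipristal and 18.4 with vehicle, 1.82-fold. Efhc2, an EF-hand protein of the doublet, went the other way with 7.18, at the level of the floor, with ulipristal and 13.5 with vehicle.

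Of the 9 other members with a probe set, 6 were at least 2-fold higher, where 5.63% of all genes with a probe set were. Tmem212, a membrane protein gene used as a marker of ciliated cells, had 152 with ulipristal and 57.5 with vehicle, 2.65-fold. Cfap43, an axonemal protein needed for cilia and sperm tails, had 95.6 with ulipristal and 33.2 with vehicle, 2.88-fold, on a probe set of the kind that can bind several transcripts. Its next probe set had 20.1 with ulipristal and 19.1 with vehicle. Ak7, an adenylate kinase of cilia, had 139 with ulipristal and 64.9 with vehicle, 2.14-fold, and fell short of 2-fold after quantile normalization, after lowess centring and with 50 added. Its relative Ak8 had 14.3 with ulipristal and 4.10 with vehicle, at least 1.99-fold. Tppp3, a tubulin-binding protein, had 110 with ulipristal and 49.5 with vehicle, 2.23-fold. Among dim genes, Cdhr3, a cadherin of ciliated airway cells, had 37.6 with ulipristal and 9.32 with vehicle, 4.03-fold. Armc3, an armadillo repeat gene, had 37.7 with ulipristal and 11.8 with vehicle, 3.18-fold. Its other probe set had 8.01 with ulipristal and 10.0 with vehicle. Mlf1, which is not confined to ciliated cells, was the only measured member with a negative ratio, with 186 with ulipristal and 217 with vehicle. Stk33, a kinase of the sperm tail, was below the floor on both arrays.

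Members with several probe sets gave little check within a gene. Of the 19 probe sets that were not the brightest of their gene, 0 passed the filter and 9 were at or below the floor on both arrays. Of the other 10, 5 had a positive and 5 a negative log2 ratio, and 1, of Dnali1, was at least 2-fold higher. For 26 members there was 1 probe set.

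A second list held 134 other motile cilium genes, of which 93 had a single-gene probe set, 3 of them through a RefSeq synonym. Of these 93, 29 were at least 2-fold higher, where 5.63% of all genes with a probe set were. Only 1 of the 93, Lrrc46, was lower by that much, where 2.53% of all genes were. The median log2 ratio of the 93 was 0.57. In the 28 measured, 7 passed 2-fold upward and 0 downward, and the median was 0.46. Their share, 25%, lay above the 3.34% of all measured genes and below the share of the members. Rsph3a, a radial spoke protein, had 428 with ulipristal and 121 with vehicle, 3.55-fold, and was the only one of the 7 above the 75th percentile of signal. Nme5, also of the spokes, had 92.6 with ulipristal and 33.7 with vehicle, 2.75-fold. Drc3 of the nexin link was 2.19-fold higher and Mns1 of the doublet 2.22-fold higher. Ccdc153, Morn2 and Capsl, genes of ciliated cells, were 2.54-fold, 2.46-fold and 2.31-fold higher.

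In the other groups of the second list no measured gene reached 2-fold, while dim genes did. Of the 4 measured regulators of multiciliation none reached 2-fold. Myb had 53.6 with ulipristal and 28.3 with vehicle, 1.89-fold, and Rfx1 had 192 with ulipristal and 129 with vehicle. None of the 5 measured assembly factors reached it, with Dnaaf5 at 126 with ulipristal and 95.4 with vehicle and Spag1 at 258 with ulipristal and 198 with vehicle. Nor did the 3 measured dynein genes, led by Dnah1 at 53.6 with ulipristal and 34.9 with vehicle and Dnal4 at 88.2 with ulipristal and 64.2 with vehicle. The 3 measured central pair genes, led by Spef1 at 138 with ulipristal and 96.8 with vehicle and Cfap54 at 81.2 with ulipristal and 63.6 with vehicle, also stayed under it, whereas 6 of all 10 central pair genes with a probe set, the dim ones included, were at least 2-fold higher. With dim genes included, 2 of 9 regulators, 1 of 10 assembly factors and 1 of 10 dynein genes with a probe set were. Of all genes with a probe set 5.63% were, and of those too dim to count as measured 9.45%. A count of 1 of 10 thus lies near these shares. Tubb4b, a beta tubulin of cilia that many cells express, had 1594 with ulipristal and 1623 with vehicle.

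Genes of the primary cilium, which lacks dynein arms, spokes and the central pair, had a smaller median ratio than the motile cilium members. The median log2 ratio was 0.32 over the 43 measured primary cilium genes and 0.09 over all measured genes. Of these 43, 38 had a log2 ratio above 0 and 5 below. At 2-fold, 2 passed upward, a share near the 3.34% of all measured genes, and 0 downward. The 2 were Bbs4 and Tctn1. Bbs4, a subunit of the membrane-cargo complex BBSome, had 141 with ulipristal and 65.1 with vehicle on its brightest probe set. That probe set is of a type that can bind several transcripts, and the other measured ones of Bbs4 were 1.59-fold and 1.35-fold higher. A dim one had 13.5 with ulipristal and 17.4 with vehicle. Tctn1, of the transition zone at the base of the cilium, had 65.4 with ulipristal and 31.5 with vehicle. The difference between these lists was not tested, since there was 1 array per treatment. The lists are not matched in signal. Summed signals with vehicle were 7723 over 44 primary cilium genes and 1179 over 39 members, and 17 of the 18 measured members lay below 154. Among measured genes, 7.48% below 154 were at least 2-fold higher and 0.822% above it.

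**Figure D3:**
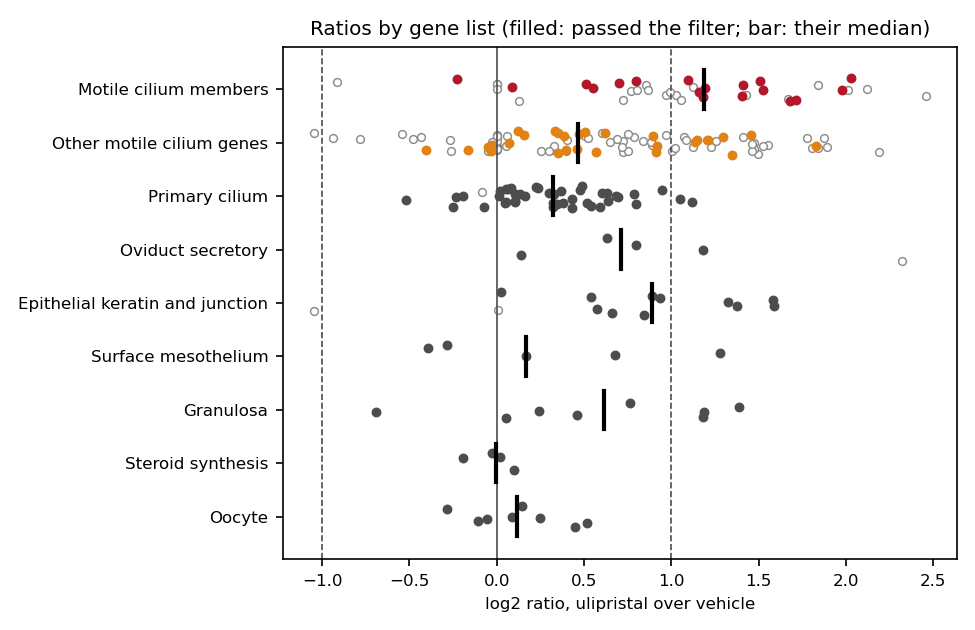
Log2 ratio of ulipristal over vehicle for each gene's brightest probe set, by list; filled points passed the signal filter, open points did not, black bars are medians of the filled points and dashed lines mark 2-fold. The median was 1.19 for the motile cilium members, 0.46 for other motile cilium genes, 0.32 for the primary cilium and 0.12 for oocyte genes. It was 0.89 for epithelial keratin and junction genes, 0.71 for oviduct secretory genes and 0.61 for granulosa genes. For surface mesothelium it was 0.17 and for steroid synthesis -0.005.

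Whole ovaries can carry oviduct and other epithelium, so marker lists are given beside the cilium genes. The summed signal over the members' brightest probe sets was 2395 with ulipristal and 1179 with vehicle, a ratio of 2.03. For 5 oviduct secretory markers the sums were 5984 with ulipristal and 3858 with vehicle, a ratio of 1.55, and none of the 5 was below the floor on both arrays. Ovgp1, the oviductal glycoprotein, had 5642 with ulipristal and 3641 with vehicle, and Slpi, a protease inhibitor, had 133 with ulipristal and 121 with vehicle. Wfdc2, a secreted protein, had 70.0 with ulipristal and 30.9 with vehicle. The mucin Muc16 had 98.1 with ulipristal and 56.5 with vehicle. Pax8, a transcription factor of the oviduct and rete, had 41.3 with ulipristal and 8.26 with vehicle, below the filter, and was chosen after its values were seen. For 13 epithelial keratin and junction genes the sums were 2032 with ulipristal and 1236 with vehicle, a ratio of 1.64. Of the 11 measured, 4 were at least 2-fold higher, where 3.34% of all measured genes were. Among the 4 were the transcription factors Elf3 (79.6 with ulipristal and 26.5 with vehicle) and Ehf (83.3 with ulipristal and 27.8 with vehicle). The claudin Cldn7 (65.7 with ulipristal and 25.3 with vehicle) and the adhesion molecule Epcam (268 with ulipristal and 107 with vehicle) were the others. The other probe sets of Ehf were dim and none reached 2-fold, and that of Epcam was 3.98-fold higher. The keratin Krt8 had 383 with ulipristal and 377 with vehicle on its brightest probe set, and was 1.32-fold and 1.34-fold higher on its others. The keratins Krt18, Krt19 and Krt7 were 1.91-fold, 1.80-fold and 1.58-fold higher. Of the 2 dim genes of that list, Muc1 had 14.4 with ulipristal and 14.3 with vehicle, and Cldn4 had 6.80, below the floor, with ulipristal and 14.8 with vehicle, at least 2.07-fold lower. The part of such epithelium in the cilium values was not tested. In whole-organ RNA, more ciliated cells and more RNA per ciliated cell cannot be told apart.

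Markers of the ovary itself were present on both arrays. Steroid synthesis genes had sums of 36830 with ulipristal and 36751 with vehicle, with Star at 5016 with ulipristal and 5733 with vehicle and Cyp11a1 at 11177 with ulipristal and 10451 with vehicle. For 8 oocyte genes the sums were 1976 with ulipristal and 1846 with vehicle, and Zp3, of the zona pellucida, had 301 with ulipristal and 211 with vehicle and Zp1 had 124 with ulipristal and 91.0 with vehicle. The 8 granulosa genes had sums of 15259 with ulipristal and 12073 with vehicle. Inhba, Esr2 and Fshr of that list were 2.62-fold, 2.28-fold and 2.26-fold higher, and Foxl2, the granulosa identity factor, was 1.70-fold higher. Amh, the anti-Müllerian hormone, went the other way with 30.1 with ulipristal and 48.7 with vehicle, and Nr5a2, an orphan nuclear receptor, had 3253 with ulipristal and 3130 with vehicle. For 5 genes of the surface mesothelium the sums were 726 with ulipristal and 615 with vehicle. Lrrn4 among them was 2.43-fold higher and Upk3b 1.60-fold higher, whereas Gpm6a had 154 with ulipristal and 202 with vehicle and Upk1b had 77.3 with ulipristal and 94.0 with vehicle.

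**Figure D4:**
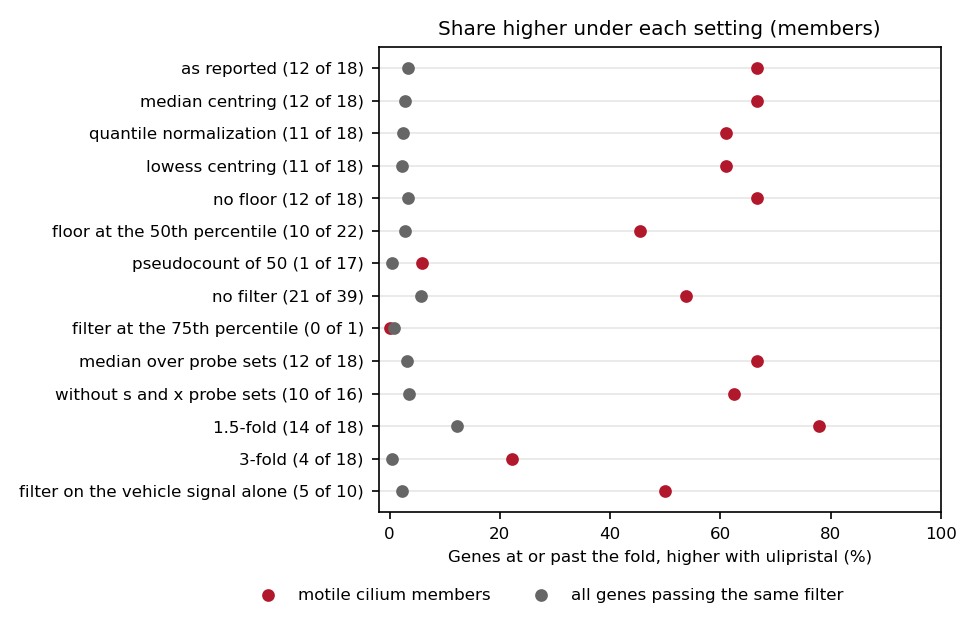
Share (%) of motile cilium members (red) and of all genes passing the same filter (grey) that were higher with ulipristal by at least the fold used, under each processing setting; labels give the members' counts. As reported the shares were 66.7% and 3.34%, and the members' share was 5.88% with 50 added to every signal and 0% with the filter at the 75th percentile, which 1 member passed.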

How the data were processed

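The deposited values are MAS5 probe set intensities on a linear scale. Per the submitters' processing notes, MAS5 and version 1 of Affymetrix Expression Console were used, and the order of steps is not recorded there. Labelling started from 100 ng of total RNA, per the labels' protocols. Both arrays had a mean of 150 once the lowest and highest 2% of values were removed, so the authors' values are globally scaled and differences common to nearly all genes are hidden. No detection call was used here, and a genome build (GRCm38.p6) was used only for the promoter windows. With 1 array per treatment, the number of arrays limits the precision.

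Of 45101 probe sets, 64 control features and those naming several genes (932) or none (9160) were left out. Lower signals were raised to the floor at the 25th percentile before log2 was taken, and a fold that involves the floor is a lower bound. Each gene was represented by its brightest probe set (highest mean of log2 signals). Every member is named, and from each other list up to 4 measured genes with the largest absolute ratio, or 2 where none reached 2-fold. Amh, Cldn4, Krt7, Krt8, Krt18, Krt19, Lrrc46, Muc1, Nr5a2 and Pax8 are named outside this rule, after their values were seen. The members, lists and thresholds were chosen with earlier results of these data known, among them the ratios of Foxj1, Ccdc39, Tmem212 and Tppp3. The steps were tested on simulated data. These had the same spread at every signal and changes planted only in measured genes, so they say nothing on dim genes. Normalization, floor, filter, probe set choice and fold were varied, and 2 variations were added after the data were seen. The software was Python 3.11.15 with matplotlib 3.10.9, numpy 2.4.6, pandas 2.3.3 and statsmodels 0.14.6.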

Additional observations from a re-analysis of the deposited data

How the results depend on the processing

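The count of members at least 2-fold higher was 12 of 18 as reported, and 10 to 14 under median centring, quantile normalization, lowess centring, a raised floor (50th percentile) or none, the median over probe sets, no s and x probe sets, and 1.5-fold. It was 21 with no filter, 4 at 3-fold, 1 with 50 added to every signal, and 0 with the filter at the 75th percentile. There 1 member was left, Mlf1, and the median log2 ratio turned to -0.22. The members' median was 0.85 with the floor at the 50th percentile and 0.67 with 50 added. Among alternatives chosen after the data were seen, the filter on the vehicle signal alone gave 5 of 10 with a median of 0.95, and leaving out the 4 members whose ratios were known gave 8 of 14 with a median of 1.14. No member was at least 2-fold lower under any of these settings. Other motile cilium genes at least 2-fold higher numbered 29 with no filter, 11 at 1.5-fold, and 1 at 3-fold, with 50 added and with the filter at the 75th percentile, where their median was 0.14. Over all genes the counts higher and lower were 1025 and 460 with no filter, 58 and 101 with the filter at the 75th percentile, 54 and 98 with 50 added, 1402 and 520 at 1.5-fold, and 60 and 57 at 3-fold, and 244 and 228 with the filter on the vehicle signal, against 380 and 177 as reported. A median was taken to have moved at more than 0.2. No paired analysis was possible because there was 1 array per treatment.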
